A study of Mus musculus with 2 samples.

Results

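The 10 genes described here control passage of the cell cycle through G1. They are the D cyclins Ccnd1, Ccnd2 and Ccnd3, the cyclin-dependent kinases Cdk4 and Cdk6, the inhibitors Cdkn1b, Cdkn2a, Cdkn2b and Cdkn2c, and the retinoblastoma gene Rb1. They were chosen by name, all 10 were found among the 24862 genes of the deposited table, and 9 had 10 or more counts in at least 1 library. The RNA-seq data come from GFP+ cells of inguinal white fat, sorted from its stromal vascular fraction, the cells other than adipocytes that remain after collagenase digestion. The series' design text equates GFP+ with Pref-1+ cells, Pref-1 being the product of Dlk1 and a mark of early adipose precursors. There were 2 libraries, 1 of Sox9 floxed mice, titled WT, and 1 of Sox9 PreASKO mice, titled KO. Both groups were male, 3 weeks old, and had been given doxycycline on postnatal day 1. The labels do not name the promoter that drives the deletion or GFP. The design text gives the mice as pooled, 6 in number, and it is not stated if this number is for each genotype. With 1 pooled library per genotype there is no spread between animals, no test between genotypes and no p-value here.

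D cyclins are made in response to growth signals and bind Cdk4 or Cdk6. The kinases then phosphorylate the Rb protein, which otherwise holds E2F transcription factors inactive and keeps the genes of DNA synthesis off. INK4 proteins, the products of Cdkn2a, Cdkn2b and Cdkn2c, bind Cdk4 and Cdk6 and block them, while p27, the product of Cdkn1b, mainly blocks Cdk2 with cyclin E. In fat tissue the Rb and E2F proteins are also known to act on adipocyte differentiation.

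Of the 9 G1 genes that passed the count filter, Cdkn2b was the only one past the 2-fold limit that the series' design text uses, and it was higher in the PreASKO library. Rb1 was lower in PreASKO by 1.49-fold, and the other 7 lay between a CPM ratio of 0.839 and one of 1.20. Over all 18911 genes that passed the filter, 9.08% had a CPM ratio above 2 and 18.2% one below 0.5, together 27.3%. That share is raised by genes with few counts. All 9 genes reached 100 counts in a library, and of the 12982 genes that did so 1481 were past 2-fold, 442 higher and 1039 lower. Cdkn2b reached 100 counts only in PreASKO, where it is high, with 161 counts beside 53 in floxed. For Cdkn2b this stricter limit is therefore not independent of its ratio. The median log2 CPM ratio of the 9 genes was -0.03, beside -0.07 for all genes that passed. CPM is the count scaled to a common library total, and a ratio is always PreASKO over floxed. Values in parentheses bound exact 95% intervals, which hold counting error and nothing else.

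Promoter windows are shown for the gene that passed the limit, for its neighbour in the genome that gave almost no reads, and for the most abundant member. RefSeq windows on GRCm38.p6, from 250 bases before to 50 after a start site, were given for 7 of the 10 genes, in 10 windows. Capitals mark TGACGTCA, the cyclic AMP response element, and GGGCGG, the GC box, in Cdkn2b, the GC box alone in Cdkn2a, and CACGTG, the E-box that Myc proteins can bind, in Cdk4. All lie on the strand of their gene, which is minus for Cdkn2b (chr4:89310983-89311282) and for both windows of Cdkn2a (chr4:89294570-89294869 and chr4:89282143-89282442) and plus for Cdk4 (chr10:127063285-127063584).
Cdkn2b: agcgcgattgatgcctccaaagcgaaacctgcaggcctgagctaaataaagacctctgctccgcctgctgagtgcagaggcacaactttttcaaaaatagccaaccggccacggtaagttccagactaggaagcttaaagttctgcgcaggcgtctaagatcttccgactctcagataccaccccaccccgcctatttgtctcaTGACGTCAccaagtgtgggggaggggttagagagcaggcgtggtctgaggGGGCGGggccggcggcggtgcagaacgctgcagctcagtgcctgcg
Cdkn2a, first window: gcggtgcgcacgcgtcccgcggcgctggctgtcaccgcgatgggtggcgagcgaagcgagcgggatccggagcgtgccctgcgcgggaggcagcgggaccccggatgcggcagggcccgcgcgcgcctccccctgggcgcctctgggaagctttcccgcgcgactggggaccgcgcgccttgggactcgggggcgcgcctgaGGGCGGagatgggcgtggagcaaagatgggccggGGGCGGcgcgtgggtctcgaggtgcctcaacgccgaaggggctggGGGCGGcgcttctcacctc
Cdkn2a, second window: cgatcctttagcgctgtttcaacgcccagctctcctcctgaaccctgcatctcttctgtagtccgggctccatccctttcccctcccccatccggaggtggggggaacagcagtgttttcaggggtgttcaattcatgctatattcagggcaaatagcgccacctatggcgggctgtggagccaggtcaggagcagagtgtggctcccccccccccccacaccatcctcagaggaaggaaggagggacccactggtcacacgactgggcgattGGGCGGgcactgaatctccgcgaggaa
Cdk4: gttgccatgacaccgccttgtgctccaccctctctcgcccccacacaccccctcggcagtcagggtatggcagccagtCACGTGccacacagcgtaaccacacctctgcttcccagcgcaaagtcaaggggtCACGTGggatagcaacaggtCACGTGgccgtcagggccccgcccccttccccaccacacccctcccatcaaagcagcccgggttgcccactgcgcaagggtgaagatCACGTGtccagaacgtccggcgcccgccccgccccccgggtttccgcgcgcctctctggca
Letters were searched on both strands, and no 2 capitalised matches overlap. The response element of Cdkn2b begins 46 bases before the start site, and 1.80% of 32544 distinct windows of all genes hold these letters. None of the other 9 windows of these genes does. The Cdk4 window holds 4 E-boxes, beginning 172, 118, 98 and 11 bases before the start site. At least 1 E-box was found in 7.17% of all windows, and 4 or more in 8 windows, or 0.0246%. The Cdk6 window and a Cdkn2c window hold 1 each. A GC box, found in 35.9% of all windows, is present in the Cdkn2b window, in both Cdkn2a windows and in the Cdk4 window, where it is not capitalised. The E2F letters TTTGGCGC and TTTCGCGC, found in 0.519% and 0.326% of all windows, are in none of the 10, and AACAAT, which SOX proteins can bind, is in the Cdk6 window and in 10.6% of all windows. The letters to search were chosen after the windows had been read, and a match is a description of these letters, not a binding site.

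Cdkn2b, which encodes the INK4 inhibitor p15, had 53 counts in the floxed and 161 in the PreASKO library, all of them raw counts. Its level was 1.41 CPM (1.05 to 1.84) in floxed cells and 5.52 CPM (4.70 to 6.44) in PreASKO cells. The intervals of the 2 levels do not overlap, and the CPM ratio was 3.93 (2.86 to 5.46). Of all 18911 genes that passed the filter, 850 genes, or 4.49%, had a higher ratio. In GRCm38.p6 this gene (ID 12579) spans bases 89306289 to 89311032 of chromosome 4.

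Its neighbour Cdkn2a, which encodes p16 and, from another first exon, p19Arf, was almost silent. It had 1 count in the floxed library and 0 in PreASKO. The exact intervals of its level reach 0.148 CPM in floxed and 0.126 CPM in PreASKO. The floor used for a library at 0 is 3 counts, or 0.103 CPM in PreASKO. No ratio is given, since both libraries lie under that floor. The authors' deposited table gives a log2 fold of -6.54 for this gene, which rests on that single count. Cdkn2a (ID 12578, from 89274473 to 89294619) and Cdkn2b are separated by 11669 bases. Mtap, the enzyme gene on the other side of Cdkn2a, named after its value was seen, had 789 floxed and 610 PreASKO counts, a CPM ratio of 0.999 (0.898 to 1.11).

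Cdkn2c, which encodes the INK4 inhibitor p18 (ID 12580, chromosome 4 from 109660876 to 109666756), had 2123 floxed and 1610 PreASKO counts. Its level was 56.3 CPM in floxed and 55.2 CPM in PreASKO, giving a ratio of 0.980 (0.918 to 1.05), so no difference beyond counting error was seen. Per kilobase of exon, Cdkn2c held 86.7% of the INK4 counts in the floxed library and 73.5% in PreASKO. The share of Cdkn2b was 4.18% in floxed and 14.2% in PreASKO, and that of Cdkn2d, the fourth INK4 gene and not one of the 10, 9.06% and 12.3%. The number of Cdkn2b counts per Cdkn2c count was 4.01 times as high in PreASKO as in floxed (2.90 to 5.61), a value that scaling by 1 factor per library cannot alter. The 2 genes rest on different kinds of count, described below. Each scaled to the total of its own kind, the ratio of Cdkn2b was 4.04 and that of Cdkn2c 0.952. The summed INK4 level was 61.2 CPM in floxed and 66.1 CPM in PreASKO, giving a ratio of 1.08 (1.02 to 1.15). The 3.93-fold ratio of Cdkn2b went with a small difference in the family sum, most of which was Cdkn2c in both libraries.

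**Figure D1:**
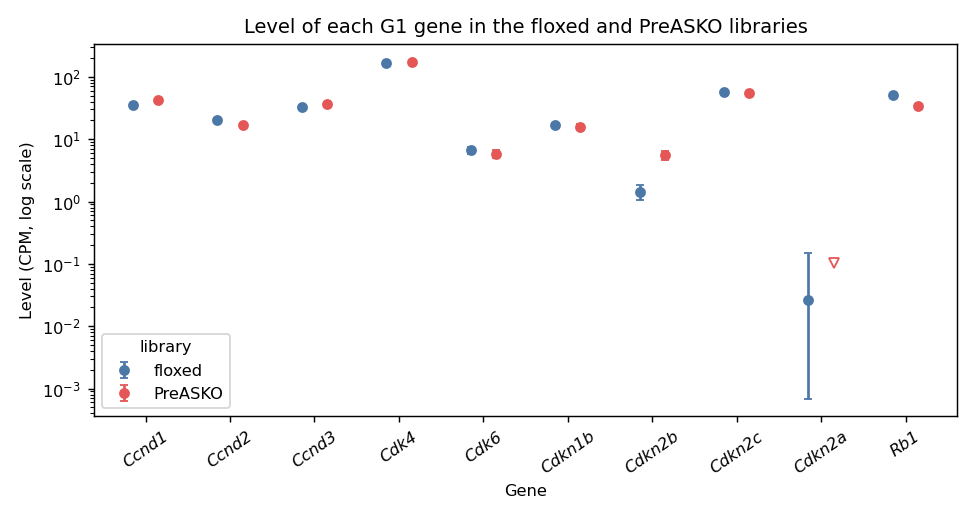
Level of each gene in CPM on a log axis, floxed in blue and PreASKO in red, with exact 95% Poisson intervals as bars, many of them smaller than the points. The open triangle is the floor of 3 counts, or 0.103 CPM, drawn for the 0 counts of Cdkn2a in PreASKO. The clearest gap between libraries is that of Cdkn2b, from 1.41 to 5.52 CPM.

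Cdkn1b, which encodes p27 (ID 12576, chromosome 6 from 134920401 to 134925525), had 632 floxed and 461 PreASKO counts, all raw. Its level was 16.8 CPM in floxed and 15.8 CPM in PreASKO cells. The ratio of 0.943 (0.834 to 1.06) lay within counting error of equal levels.

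Rb1 (ID 19645, chromosome 14 from 73192858 to 73325951) was the lowest of the 9 genes in PreASKO relative to floxed. It had 1941 floxed and 1009 PreASKO counts, or 51.5 CPM (49.2 to 53.8) and 34.6 CPM (32.5 to 36.8). The intervals of the 2 levels do not overlap, and the ratio was 0.672 (0.622 to 0.725). Raw and repeat-distributed counts, scaled apart, gave 0.671 (0.572 to 0.785) and 0.659 (0.603 to 0.719). Of all genes that passed the filter, 27.2% had a lower ratio than Rb1. That set includes genes with few counts, and the share among genes of like depth was not computed. Scaled to the summed adipose precursor markers described below, the ratio of Rb1 was 1.18 (1.09 to 1.27), the opposite direction. This direction depends on the marker, and that sum is mostly collagen and Dcn RNA. Dlk1, at a ratio of 0.850, and Col1a1, at 0.682, had higher ratios than Rb1, and all other markers of the list had lower ones.

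The Rb relatives Rbl1 and Rbl2, which encode p107 and p130 and share the E2F factors with Rb, had ratios above 1. They are not among the 10 genes, and they were named after their values were seen. Rbl1 had 813 floxed and 789 PreASKO counts, with levels of 21.6 and 27.1 CPM and a ratio of 1.25. Rbl2, the form best known from resting cells, had 3290 and 3549 counts, with levels of 87.3 and 122 CPM and a ratio of 1.39. Per kilobase of exon, Rb1 held 36.1% of the counts of the 3 genes in floxed and 21.8% in PreASKO, and Rbl2 48.7% and 61.1%. Rbl2 counts per Rb1 count went from 1.70 to 3.52, by 2.08-fold (1.90 to 2.27), and Rbl1 counts per Rb1 count from 0.419 to 0.782, by 1.87-fold (1.65 to 2.12). The summed level of the 3 was 160 CPM in floxed and 183 CPM in PreASKO cells.

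**Figure D2:**
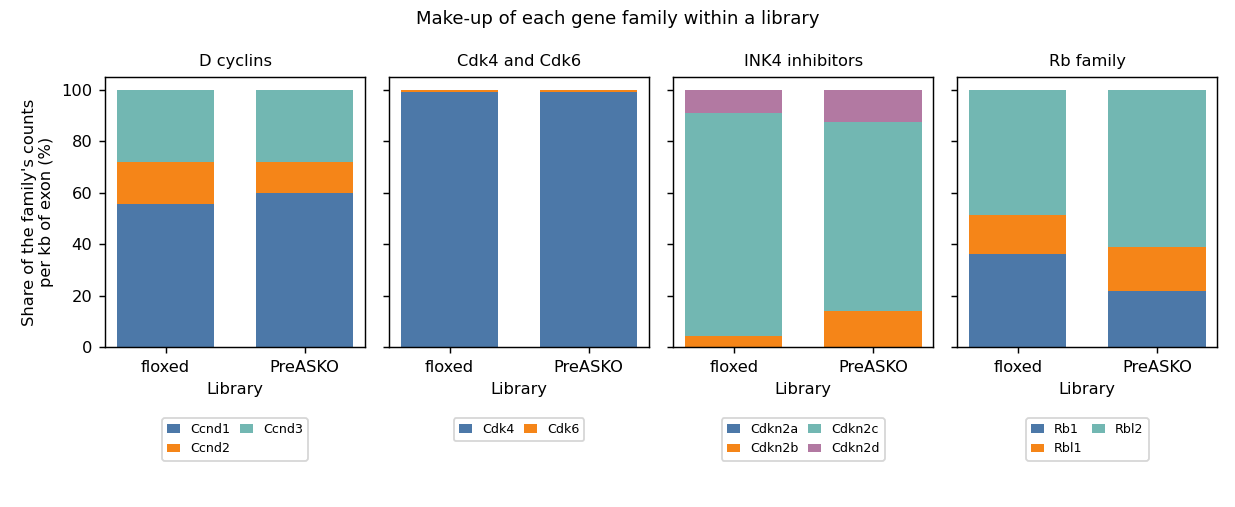
Share of each gene in its family's counts per kilobase of exon, in percent, for the floxed and PreASKO libraries. Cdkn2b holds 4.18% of the INK4 inhibitors in floxed and 14.2% in PreASKO, Rb1 36.1% and 21.8% of the Rb family, and Cdk4 99.1% and 99.2% of both kinases.

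The D cyclins did not move as 1 group. Ccnd1, which encodes the D cyclin most closely tied to growth factor signals in stromal cells (ID 12443, chromosome 7 from 144929931 to 144939831), had 1322 floxed and 1230 PreASKO counts. Its level was 35.1 CPM in floxed and 42.2 CPM in PreASKO, giving a ratio of 1.20 (1.11 to 1.30). Ccnd3 (ID 12445, chromosome 17 from 47505051 to 47599689), whose cyclin is prominent in blood cells and muscle, had 1241 and 1066 counts. Its level was 32.9 CPM in floxed and 36.5 CPM in PreASKO, giving a ratio of 1.11 (1.02 to 1.21). Ccnd2 (ID 12444, chromosome 6 from 127125162 to 127152188) was lower, with 761 and 494 counts, 20.2 CPM in floxed and 16.9 CPM in PreASKO cells, and a ratio of 0.839 (0.748 to 0.941). Scaled to the summed adipose precursor markers described below, Ccnd2 too had a ratio above 1, at 1.47. Of those markers Dlk1 alone, at 0.850, had a higher ratio than Ccnd2.

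Within the family, Ccnd1 and Ccnd3 each differed from Ccnd2 in their ratio beyond counting error. Ccnd1 counts per Ccnd2 count went from 1.74 to 2.49, a change of 1.43-fold (1.25 to 1.65), and Ccnd3 counts per Ccnd2 count from 1.63 to 2.16, a change of 1.32-fold (1.15 to 1.53). Ccnd1 counts per Ccnd3 count changed by 1.08-fold (0.966 to 1.21), within counting error. Per kilobase of exon, Ccnd1 held 55.8% of D cyclin counts in floxed and 60.0% in PreASKO, and Ccnd2 16.1% and 12.1%. The summed D cyclin level was 88.2 CPM in floxed and 95.6 CPM in PreASKO, giving a ratio of 1.08 (1.03 to 1.14).

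Cdk4, the kinase partner of the D cyclins (ID 12567, chromosome 10 from 127063535 to 127067288), had 6200 floxed and 5101 PreASKO counts. Its level was 164 CPM (160 to 169) in floxed and 175 CPM (170.1 to 180) in PreASKO cells, and the intervals do not overlap, though the ratio was only 1.06 (1.02 to 1.10). Cdk6, which can stand in for Cdk4 and is prominent in blood cells (ID 12571, chromosome 5 from 3341004 to 3531008), had 249 and 168 counts. Its level was 6.60 CPM in floxed and 5.76 CPM in PreASKO, giving a ratio of 0.872 (0.713 to 1.06) within counting error. Per kilobase of exon, Cdk4 made up 99.1% of the counts of both kinases in floxed and 99.2% in PreASKO. Cdk4 counts per Cdk6 count changed by 1.22-fold (0.995 to 1.497), again within counting error.

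The balance of kinase and brake within a library is free of scaling by 1 factor per library. It is not free of the kind of count, since those of Cdkn2b and Cdkn1b were raw and those of the others mostly repeat-distributed. Cdk4 counts per Rb1 count went from 3.19 to 5.06, a change of 1.58-fold (1.45 to 1.72), and Ccnd1 counts per Rb1 count from 0.681 to 1.22, a change of 1.79-fold (1.60 to 2.00). Cdk4 counts per Cdkn2b count went from 117 to 31.7, a ratio of 0.271 (0.194 to 0.372). Cdk4 counts per Cdkn2c count changed by 1.08-fold (1.01 to 1.17) and per Cdkn1b count by 1.13-fold (0.993 to 1.28). In all, 12 such pairs were compared.

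**Figure D3:**
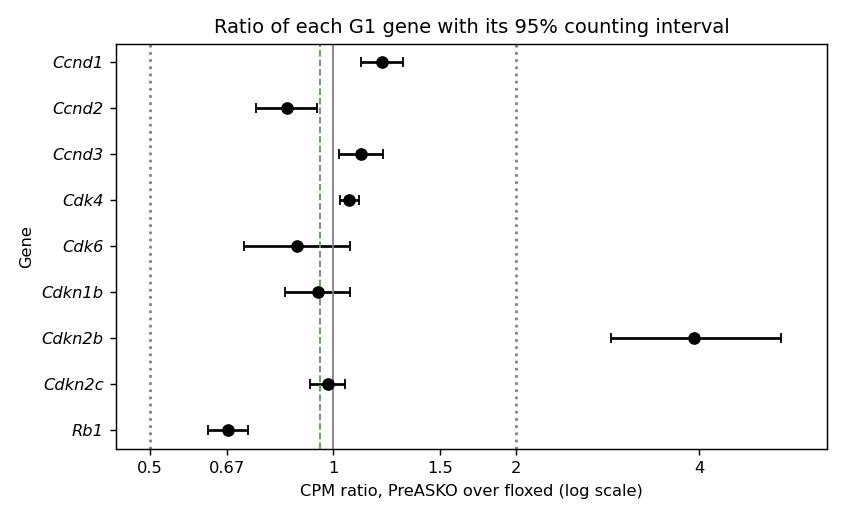
CPM ratio of PreASKO over floxed on a log axis for the 9 genes with enough counts, with exact 95% counting intervals as bars. Dotted lines mark 2-fold, the solid line equal levels and the dashed green line the median of all genes, and Cdkn2b at 3.93 is the only gene past a dotted line.

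By counting error alone, 4 of the 9 genes were higher in PreASKO (Ccnd1, Ccnd3, Cdk4 and Cdkn2b), 2 were lower (Ccnd2 and Rb1) and 3 had intervals that include 1 (Cdk6, Cdkn1b and Cdkn2c). Of all genes that passed the filter, 33.2% had an interval above 1 and 39.9% one below 1, together 73.1%. The 6 of 9 is near that share. It includes genes with few counts, whose intervals are wider, and the share among genes of like depth was not computed. The intervals of Cdk4, 1.02 (0.987 to 1.06), and Ccnd3, 1.07 (0.984 to 1.16), included 1 when the totals left out mitochondrially encoded and haemoglobin genes. They also did on repeat-distributed counts alone, at 1.035 (0.9955 to 1.075) for Cdk4 and 1.08 (0.993 to 1.17) for Ccnd3. Raw counts alone gave 1.06 (0.919 to 1.22) for Cdk4. Scaled to the summed adipose precursor markers described below, all 9 genes had intervals above 1, with ratios of 1.72 (1.61 to 1.84) for Cdkn2c, 1.65 (1.46 to 1.87) for Cdkn1b and 1.53 (1.25 to 1.87) for Cdk6. This scaling raises every gene of the libraries by the same 0.81 (log2), because the marker sum itself is lower in PreASKO. Intervals above 1 under it are therefore not particular to the G1 genes.

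Per kilobase of exon, the order of levels in floxed cells was Cdk4 at 50.6 CPM per kilobase, Cdkn2c at 21.0, Rb1 at 8.56, Ccnd1 at 7.45, Ccnd3 at 3.75, Cdkn1b at 3.68, Ccnd2 at 2.15, Cdkn2b at 1.01 and Cdk6 at 0.472. The counting intervals of neighbours overlapped only for Ccnd3 and Cdkn1b. In PreASKO cells Ccnd1, at 8.95 CPM per kilobase, stood above Rb1, at 5.75, the reverse of the floxed order. Cdkn2b, at 3.97 CPM per kilobase, stood between Ccnd3 at 4.16 and Cdkn1b at 3.47, and its interval overlapped with those of both. Lengths are merged exons of GENCODE M21, and a gene whose transcripts use few of them is understated.

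Many of these values rest on counts that the deposited table calls repeat-distributed, a term the sources used here do not define. From the name, they may be reads that fit several places, be it in the genome or among transcripts of 1 gene, and were shared out, which was not tested. Cdkn1b and Cdkn2b, with 1 RefSeq transcript each, had raw counts alone. The other genes past the filter have 2 or more transcripts. Counts of Ccnd2, Cdk6 and Cdkn2c were repeat-distributed alone, and those of Ccnd1, Ccnd3, Cdk4 and Rb1 mostly so, with 1465 of 1941 floxed and 769 of 1009 PreASKO counts for Rb1. Ccnd1 had 16 floxed and 24 PreASKO raw counts, and these alone gave a ratio of 2.00 (1.02 to 4.02), beside 1.16 (1.07 to 1.25) for its repeat-distributed counts. The exons of Cdk4 overlap those of Tspan31 on the opposite strand over 19.7% of their length, and those of Ccnd1 overlap LTO1 over 23.4%. Those of Rb1 overlap Rcbtb2 over 8.11% and Lpar6 over 6.78%. Whether counting used strand is not stated, so reads there may belong to either gene.

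The targeted gene, Sox9, had 228 floxed and 73 PreASKO counts, a CPM ratio of 0.414 (0.314 to 0.541), and Meis1, the other gene in the series title, had 335 and 130 counts, a ratio of 0.502 (0.406 to 0.616). Dlk1, the gene of Pref-1, was present with 1064 floxed and 700 PreASKO counts, a ratio of 0.850. As a background for the marker counts that follow, 8658 of all 18911 genes that passed the filter were higher and 10253 lower. All 13 adipose precursor markers were detected and all 13 were lower in PreASKO, holding 3.34% of floxed and 1.90% of PreASKO counts. Most of this sum was matrix RNA, with Col1a2 at 10547, Col3a1 at 9772, Col1a1 at 6290 and Dcn at 4709 CPM in floxed. It is not a count of precursor cells. All 11 listed macrophage markers were higher, at 1.25% and 1.88% of counts, with none at 0 in either library. Of 8 neutrophil markers 7 were higher, and together they held 0.00554% and 0.0127%. All 7 listed erythroid markers were higher, at 0.0836% and 0.170%, and 5 of 5 mast cell markers, at 0.00370% and 0.00504%. All 11 mesothelial and epithelial markers were lower, at 0.0184% and 0.000538%, with 1 at 0 in PreASKO. Adipocyte markers were lower in 7 of 8 and mural markers in 7 of 8. T cell markers were higher in 4 of 7, B cell markers in 3 of 5 and endothelial markers in 4 of 8. Those splits lie near the one over all genes. The part of these cell types in the values of the G1 genes was not tested. In such mixed samples, fewer cells of a type and less RNA per cell cannot be told apart.

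**Figure D4:**
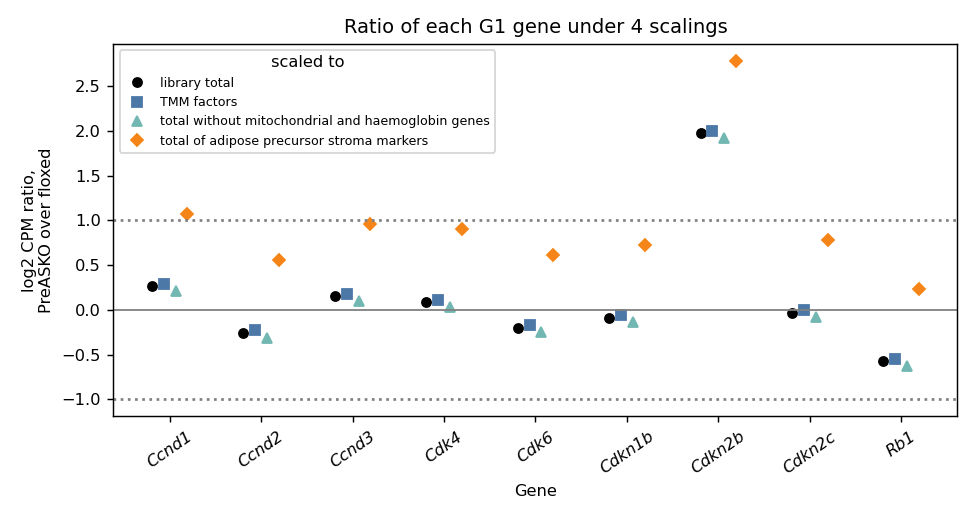
log2 CPM ratio of PreASKO over floxed for the 9 genes when libraries are scaled to the total, by TMM factors, to the total without mitochondrially encoded and haemoglobin genes, or to the adipose precursor markers. The first 3 scalings lie close together, and the fourth lifts every gene by 0.81, which takes Ccnd2 from -0.25 to 0.56 and Rb1 from -0.57 to 0.24.

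Other genes of the pathway were described from 9 lists with 86 genes that passed the filter, of which 2 were past 2-fold in the higher direction and 3 in the lower. The shares over all genes that passed were 9.08% and 18.2%. Of the 12982 genes with 100 or more counts, 1481 were past 2-fold in either direction. Over all 18911 genes that passed, 8658 were higher and 10253 lower, which is the background for the counts of higher and lower genes below. In the cyclin E and Cdk2 arm, which acts after Cdk4 and Cdk6, the median log2 CPM ratio was -0.10, with 3 of 7 genes higher and 4 lower. Ccne1, a cyclin E gene, had 163 floxed and 57 PreASKO counts, a ratio of 0.452 (0.328 to 0.615). Among 12 genes of Rb relatives, E2F and DP factors, the median was 0.07, with 7 higher and 5 lower, but raw counts alone gave a median of -0.56 and repeat-distributed counts alone one of -0.18. E2f1, an activating E2F that Rb restrains, had 244 floxed and 76 PreASKO counts, a ratio of 0.403 (0.307 to 0.523).

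The other 3 inhibitors were 2 higher and 1 lower. Cdkn1a, which encodes p21 and answers to p53, was at 225 CPM in floxed and 446 CPM in PreASKO, giving a ratio of 1.98 (1.93 to 2.04) just inside the 2-fold limit. Cdkn1c, which encodes p57, was at 12.7 CPM in floxed and 9.08 CPM in PreASKO, giving a ratio of 0.715 (0.613 to 0.833).

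Regulators of the Ink4a/Arf locus, which holds Cdkn2a and Cdkn2b, had a median log2 CPM ratio of -0.05, with 6 of 16 higher and 10 lower. The list was not split into activators and repressors of the locus, so its median and counts give no direction of regulation. By counting error alone 2 were higher and 5 lower, and 9 had intervals that include 1. Of all genes that passed the filter, 33.2% were higher and 39.9% lower by this measure. Id1, whose product blocks Ets and other activators of that locus, was the one past 2-fold, with 108 floxed and 241 PreASKO counts and a ratio of 2.88 (2.29 to 3.65). Twist1, a transcription factor gene of mesenchyme named after its value was seen, had the lowest ratio, 0.541 (0.439 to 0.664), from 320 and 134 counts. Genes for the turnover of D cyclins and p27 were 5 higher and 6 lower of 11, from Skp1a, a ubiquitin ligase subunit gene, at a ratio of 0.712 to Fbxo4, which encodes a subunit that recognises cyclin D1, at 1.39. Of Mdm2, Mdm4 and Trp53, through which p19Arf acts, the ratio of Trp53 was 1.06 (1.02 to 1.11) and that of Mdm4 0.798 (0.766 to 0.830). Of 7 genes of the Myc family and its partners, 4 were higher and 3 lower. Mxd1, a Myc antagonist, had 81 and 135 counts, a ratio of 2.15 (1.62 to 2.87), and Mycl, which has too few counts for the naming rule and was named after its value was seen, 24 and 6 counts.

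Of the 17 E2F target genes of S phase, 12 were higher and 5 lower, none past 2-fold. Their median log2 CPM ratio was 0.24. Cdt1, which licenses replication origins, had the highest ratio, 1.89 (1.69 to 2.12). The median of the 10 mitosis genes was 0.20, and 7 of them were higher. Cdc20, an activator of the anaphase-promoting complex, had a ratio of 1.37 (1.27 to 1.47) and Ccnb1, a cyclin B gene, one of 0.809 (0.732 to 0.894). These lists were chosen with earlier results of these data known, and the highest and lowest genes of a list are picked by their values.

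**Figure D5:**
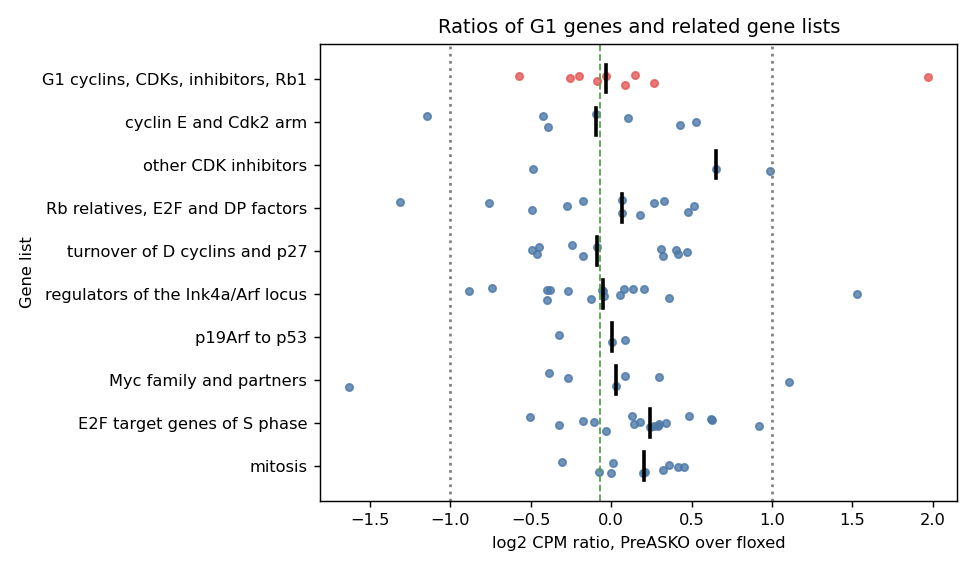
log2 CPM ratio of PreASKO over floxed for each gene (points) of the G1 group in red and of 9 related lists in blue, with list medians as black bars. The dashed green line at -0.07 is the median of all genes and the dotted lines mark 2-fold, beyond which lie Cdkn2b in the G1 group and 5 genes of the other lists.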

How the data were processed

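PolyA RNA of GFP+ inguinal stromal vascular cells was sequenced, 1 pooled library per genotype, per the labels. The authors deposited whole-number raw counts and repeat-distributed estimated counts for each gene and library, with a fold ratio of PreASKO over floxed and its log2, per the file headers. Per the submitters' processing notes, mm10 was the build. No aligner, counter or strand setting is given in the sources used here. Columns were matched to samples by WT and KO in the sample titles.

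Both kinds of count were summed per gene and rounded. Totals were 37705236 for floxed and 29172653 for PreASKO, of which 49.1% and 50.6% were repeat-distributed. CPM was scaled to these totals. Ratios have no pseudocount, and a library at 0 was set to 3 counts. A gene passed the filter if either library had 10 counts or more. Intervals are exact at 95%, conditional for a pair of counts and for pairs of genes, Poisson for levels, and cover counting error only. The authors' deposited log2 fold lay within 0.01 of the log2 ratio for 8 of the 9 genes. Intervals were run on simulated counts with Poisson error alone. That is the error they assume, so the run checks the code and not how well they suit these data. Scaling alternatives used TMM in edgeR 4.0.16 under R 4.3.3. Other steps used Python 3.11.15, matplotlib 3.10.9, pandas 2.3.3, scipy 1.17.1 and numpy 2.4.6.

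The genes, the lists and the rule for names were chosen with earlier results of these data known. Named were the 10 genes, Sox9 and Meis1 and, of each pathway list, genes past 2-fold or else the highest and lowest, among those reaching 100 counts in a library. With 2 libraries a pattern is 1 ratio, so no gene was named for likeness. A few genes of the lists had no match by symbol, and 1 gene that the rule names is not reported here. Promoters and gene coordinates are RefSeq on GRCm38.p6, exon lengths GENCODE M21.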

Additional observations from a re-analysis of the deposited data

How the results depend on the processing

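No paired analysis was possible because there is 1 library per genotype, and no replicate could be left out. TMM factors, median-of-ratios size factors and the authors' deposited fold moved none of the 9 G1 genes outside its counting interval, and Cdkn2b was the only one past 2-fold under each. Its log2 CPM ratio ran from 1.44, with a pseudocount of 1, to 2.78. Scaling to the adipose precursor markers moved the median of all genes by 0.81 and reversed Ccnd2, to 0.56, and Rb1, to 0.24. It put all 9 G1 genes outside counting error and 2 past 2-fold, Ccnd1 and Cdkn2b, with 33 pathway genes in place of 5 and 8270 genes overall in place of 5156 (6427 higher and 1843 lower). Raw counts alone, with 5 G1 genes past the filter, and repeat-distributed counts alone, with 7, each left 3 G1 genes outside counting error in place of 6. These were Ccnd1, Cdkn2b and Rb1 on raw counts and Ccnd1, Ccnd2 and Rb1 on repeat-distributed counts. Scaled to the adipose precursor markers, all 9 list medians moved by over 0.1 (log2), as did 6 of 8 on raw counts and 4 of 9 on repeat-distributed counts. The median of the cyclin E and Cdk2 arm was -0.38 on raw and 0.03 on repeat-distributed counts, that of the Ink4a/Arf regulators 0.02 and -0.18, and that of mitosis genes 0.41 and 0.03, and the cause was not tested. Repeat-distributed counts alone hold no Cdkn2b counts and so put 0 G1 genes past 2-fold, with 2759 genes overall (796 higher and 1963 lower). A pseudocount of 1 left 2 pathway genes and 1711 genes overall past 2-fold (587 higher and 1124 lower). With 100 or more counts required, 1481 of 12982 genes were past 2-fold (442 higher and 1039 lower). With no count filter, 8016 of 24855 genes were (3397 higher). Family shares per kilobase of exon were chosen after the data were seen. Depth limits Cdkn2a, Cdkn2b and Cdk6 most.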
